A study of Saccharomyces cerevisiae with 12 samples.

Results

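Hsp90 is the chaperone that late-folding proteins such as kinases and steroid receptors depend on, and budding yeast makes it from a pair of genes, HSP82 and HSC82. HSP82 is known as the heat-inducible copy and HSC82 as the constitutive copy. The chaperone works through a cycle of ATP binding, closure and hydrolysis, and co-chaperones set the pace of that cycle: Sti1 hands over clients from Hsp70, Cdc37 brings in kinases, Aha1 and Hch1 stimulate the ATPase, Sba1 (the yeast p23) holds the closed state, and Cpr6, Cpr7 and Cns1 dock on the C-terminal end of Hsp90 through tetratricopeptide repeats. Both Hsp90 genes and several co-chaperone genes are known targets of Hsf1, the heat shock transcription factor.

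The 10 genes HSP82, HSC82, STI1, AHA1, SBA1, CPR6, CPR7, CDC37, HCH1 and CNS1 were taken by name from the deposited annotation, which lists 6692 mRNA genes. All 10 were found, and each could be read as an mRNA by the rule described below, as could 6230 of the 6692. RNA-seq counts were available for 12 libraries, 3 in each of 4 groups: mex67-5 xpo1-1 cytoplasm, mex67-5 xpo1-1 total lysate, wild-type cytoplasm and wild-type total lysate. The mutant carries temperature-sensitive alleles of the mRNA export receptor gene MEX67 and of the exportin gene XPO1 (CRM1) on plasmids. The chromosomal copies are replaced by the markers HIS3 and TRP1. The labels name the background BY4741, a laboratory strain, for both strains. The paper's strain list gives them different sources, with mutations of HIS3, LEU2, MET15 and URA3 in the wild type and of URA3 in the mutant. Effects of the export alleles and of other differences between the strains cannot be told apart. All cells had been turned into spheroplasts, had recovered, and were then kept at 37 °C for 1 h, so every group, wild type included, was heated and no unheated group was analysed here. Cytoplasm was the supernatant after gentle lysis of the same suspension from which total lysate was sampled. The methods call the replicates biologically independent, while the labels do not tie a replicate number to a culture or day.

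Total counts were between 24532091 and 37361004 per library. The marker genes stood as the genotypes give them. The count for HIS3 was between 10909 and 20357 in mutant libraries, against 11 to 329 in wild-type libraries. The median of 62 snoRNA features, which belong to the nucleolus, was read as log2 CPM. CPM here are counts scaled to the library total multiplied by its TMM factor, the scaling factor from edgeR. This median was at most 5.52 in mutant cytoplasm, against at least 7.31 in mutant total. It was at most 5.23 in wild-type cytoplasm, against at least 6.88 in wild-type total. In libraries scaled to a common total, less of an mRNA in each cell and fewer cells that hold it cannot be told apart.

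Each gene was read from 2 strands. Although the labels name a non-stranded kit, counts differed strongly by strand, and the reads of an mRNA lay on the annotated feature opposite to it. For HSP82 the opposite-strand feature held 165 to 401 times as many counts as the gene's own feature, over the 12 libraries, and for HSC82 173 to 392 times. The mRNA was therefore taken from the opposite-strand feature that covers at least 0.5 of the gene, and the antisense value from the gene's own feature. For HSP82 this is 84.8% of the gene on chromosome XVI (96294 to 98697, minus strand, sacCer3), and for HSC82 81.0% of the gene on chromosome XIII (632302 to 634770, plus strand). STI1 (chromosome XV, 380986 to 383082, plus strand) was covered to 96.3% and CDC37 (chromosome IV, 790296 to 791959, plus strand) to 90.1%. AHA1 (chromosome IV, 892753 to 894193, plus strand), SBA1 (chromosome XI, 220106 to 221390, plus strand), CPR6 (chromosome XII, 571908 to 573259, minus strand), CPR7 (chromosome X, 490979 to 492519, plus strand) and CNS1 (chromosome II, 549690 to 551246, plus strand) were covered to between 56.6 and 70.0%. Some of these features also reach into a neighbour on the gene's own strand, whose reads they then share: 49.7% of the CPR6 feature lies in CDC123, 36.9% of the CDC37 feature in TAF10 and 19.4% of the AHA1 feature in UPC2. HCH1 (chromosome XIV, 108427 to 109122, plus strand) was the weakest case, because its feature is the gene ERG24 on the other strand and only 21.3% of that feature lies inside HCH1. Other opposite-strand features, 1 each over the start of HCH1 and of CPR6 and 1 inside AHA1, were chosen as second readings after the values had been seen.

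HSP82 and HSC82 are close enough in sequence that reads could in principle be shared. Their coding sequences were identical at 1953 of 2112 aligned bases (92.5%, from the R64 reference, where 5981 of 5989 coding genes had the same ends as in the deposited annotation). The longest identical run was 113 bases. Even so, only 6.68% of the 50-base windows of the HSP82 feature and 6.82% of those of the HSC82 feature occurred elsewhere in the genome, at the read length used here. The 30-base coding stretch with the most differences and the last 30 coding bases, which encode the C-terminal tail that the tetratricopeptide co-chaperones bind, are shown to make clear how far apart and how close the copies are; capitals mark the 9 and 3 bases at which they differ.
HSP82, codons 415 to 424, chrXVI:97354-97383, minus strand: gaAaaGttCtactcGgcTttcTcCaaAaaT
HSC82, codons 411 to 420, chrXIII:633585-633614, plus strand: gaCaaAttTtactcTgcCttcGcTaaGaaC
HSP82, codons 700 to 709, chrXVI:96499-96528, minus strand: ccagctgacaccgaAatggaagaGgtAgat
HSC82, codons 696 to 705, chrXIII:634440-634469, plus strand: ccagctgacaccgaGatggaagaAgtTgat

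Hsf1 binds heat shock elements, inverted repeats of the bases GAA. The 400 bases before each start codon were searched on both strands for 3 adjacent units (TTCNNGAANNTTC or GAANNTTCNNGAA) and for the gapped form (TTCNNGAANNNNNNNGAA or TTCNNNNNNNTTCNNGAA); both forms were chosen with the upstream sequences of the members in view. One form or the other was present at 6 of the 10 genes, against 140 of 6662 coding genes (2.10%). STI1 and AHA1 had adjacent units, at 1.16% of all coding genes, and HSP82, HSC82, CPR6 and HCH1 had the gapped form, also at 1.16%. A match describes the letters in the window and is not evidence of binding. No match was found at SBA1, CPR7, CDC37 and CNS1. The elements are printed because the members are set beside other Hsf1 targets further on, with the element in capitals; STI1 had 2 elements, and all 7 found at the members are shown.
HSP82, chrXVI:98837-98866, minus strand: ttttttTTCTAGAACGCCGTGGAAgaaaaa
HSC82, chrXIII:632132-632161, plus strand: ttttctTTCTAGAAGGTGAAAGAAcaattt
STI1, farther element, chrXV:380803-380832, plus strand: ctgatatcTTCGTGAAGATTCgtgtagtat
STI1, nearer element, chrXV:380829-380858, plus strand: gtatgataGAACATTCCAGAAaaaaaattc
AHA1, chrIV:892566-892595, plus strand: tcacaatgGAATTTTCTAGAAgaaaaaaca
CPR6, chrXII:573336-573365, minus strand: cggcatTTCTATGAGCTTCTAGAAtatttt
HCH1, chrXIV:108295-108324, plus strand: ctatttTTCTAGAAGACAGAAGAAaaaagt

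The 10 mRNAs spanned a wide range of levels, given here as RPKM, reads scaled to the length of the feature and to the scaled total of the library. HSC82 and HSP82 were the most abundant in every group. In wild-type total lysate HSC82 averaged 1480.1 ± 94.1 RPKM and HSP82 948 ± 226 RPKM (SD, n = 3), which placed both above at least 98.9% of the 5043 features from which mRNAs were read. STI1 came next, at 293 ± 8.83 RPKM. SBA1 followed at 184 ± 2.29 RPKM, CPR6 at 167 ± 22.2 RPKM and AHA1 at 139 ± 13.7 RPKM, and neighbours in this order overlapped between libraries. CDC37 lay at 51.1 ± 2.74 RPKM and HCH1 at 46.7 ± 4.76 RPKM, and they overlapped too. CPR7 at 20.7 ± 1.76 RPKM and CNS1 at 19.6 ± 2.76 RPKM were the least abundant and overlapped.  In mutant cytoplasm the order was another: HSP82 (845 ± 63.0 RPKM) averaged above HSC82 (724 ± 73.7 RPKM), with overlapping libraries, and AHA1 (208 ± 16.3 RPKM) lay above CPR6 (114 ± 9.02 RPKM) and SBA1 (73.0 ± 12.7 RPKM) with no overlap. HCH1 (30.0 ± 2.44 RPKM) averaged above CDC37 (27.1 ± 1.82 RPKM) there, with overlapping libraries. Its second reading in mutant cytoplasm was 36.7 ± 7.64 RPKM, with no overlap with CDC37.

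**Figure D1:**
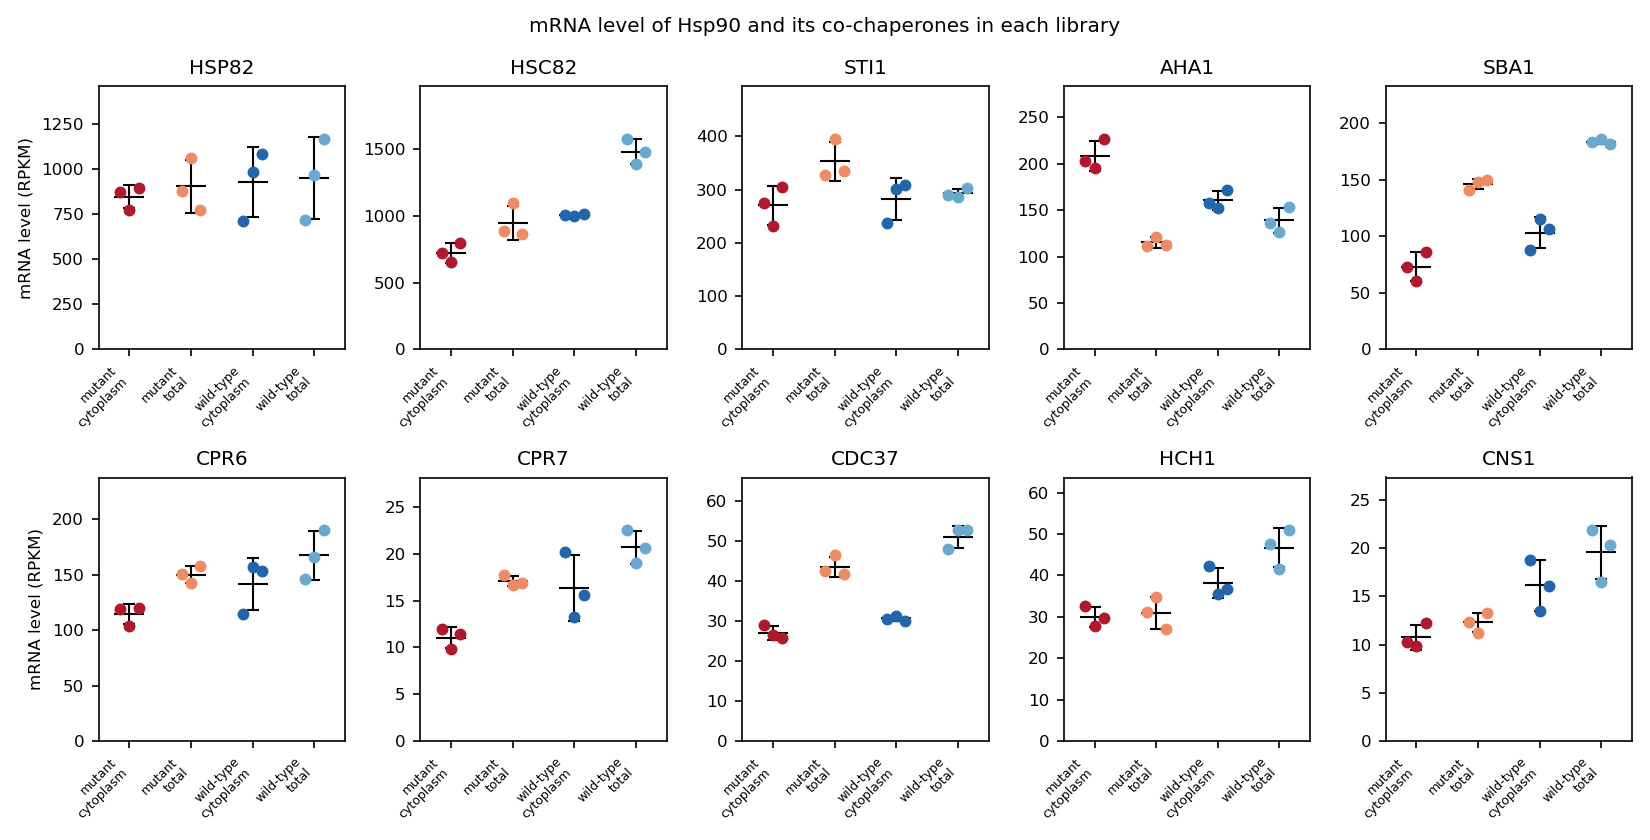
Level of each of the 10 mRNAs (RPKM, vertical axis, from 0 and on its own scale per gene) in the 4 groups; points are the 3 libraries, horizontal bars the mean and whiskers the SD. HSC82 is highest in wild-type total (1389 to 1577 RPKM), AHA1 is highest in mutant cytoplasm (195 to 227 RPKM), and HSP82 overlaps between all groups.

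The first question was whether the paralogs behaved alike across the groups. HSP82 mRNA did not pass the test in any comparison. Its levels, in replicate order, were 871, 773 and 891 RPKM in mutant cytoplasm and 878, 1060.3 and 770 RPKM in mutant total. In the wild type they were 713, 982 and 1083.5 RPKM in cytoplasm and 715, 963 and 1166.0 RPKM in total lysate. The groups overlapped throughout, and replicate 1 was the lowest HSP82 value in both wild-type fractions.

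HSC82 mRNA differed between groups. Its levels were 720, 652 and 799 RPKM in mutant cytoplasm and 885, 1091.9 and 860 RPKM in mutant total. In the wild type they were 1004.5, 999 and 1015.2 RPKM in cytoplasm, against 1576.6, 1388.6 and 1474.9 RPKM in total lysate. All wild-type total libraries lay above all others, and all mutant cytoplasm libraries below all others.

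By edgeR's quasi-likelihood test over all features, HSC82 fell to 0.694 times its total level in wild-type cytoplasm (log2 -0.53, SE 0.11, adjusted p = 0.00856). It was lower in mutant total than in wild-type total, at 0.647 times (log2 -0.63, SE 0.16, adjusted p = 0.0105), and lower in mutant cytoplasm than in wild-type cytoplasm, at 0.727 times (log2 -0.46, SE 0.16, adjusted p = 0.030). That last call was lost when any of 4 single libraries was left out, with adjusted p up to 0.117. Between mutant cytoplasm and mutant total the log2 difference was -0.42 (SE 0.19, adjusted p = 0.0806) and did not pass, whereas it passed by DESeq2 (log2 -0.43, adjusted p = 0.0124) and in 1 edgeR fit of all 12 libraries (log2 -0.42, adjusted p = 0.0310). For HSP82 the log2 differences were -0.13 (SE 0.19, adjusted p = 0.591) for mutant cytoplasm against mutant total, -0.0040 (SE 0.22, adjusted p = 0.990) for wild-type cytoplasm against total, -0.05 (SE 0.21, adjusted p = 0.854) for mutant total against wild-type total, and -0.12 (SE 0.19, adjusted p = 0.623) for mutant cytoplasm against wild-type cytoplasm. HSP82 varied more between libraries of a group than HSC82 did in the wild type, which limits what could be detected for it.

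The ratio of HSP82 to HSC82 within a library does not depend on how libraries are scaled. It was 1.21, 1.19 and 1.11 in mutant cytoplasm and 0.992, 0.971 and 0.895 in mutant total, per base of feature. In the wild type it was 0.710, 0.983 and 1.07 in cytoplasm, against 0.453, 0.693 and 0.791 in total lysate. The 3 mutant cytoplasm libraries lay above all others, and the 3 wild-type total libraries lay below both mutant groups. On the log2 scale the ratio averaged 0.23 ± 0.06 in mutant cytoplasm, -0.07 ± 0.08 in mutant total, -0.14 ± 0.31 in wild-type cytoplasm and -0.67 ± 0.42 in wild-type total (SD, n = 3).

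Mutant cytoplasm exceeded mutant total by 0.30 (SE 0.06, exact two-sided permutation p = 0.1), and mutant total exceeded wild-type total by 0.60 (SE 0.25, exact permutation p = 0.1). Mutant cytoplasm exceeded wild-type cytoplasm by 0.37 (SE 0.18, exact permutation p = 0.1). In each of these the groups did not overlap, and 0.1 is the smallest p that 3 libraries against 3 can give, so none of the 4 ratio comparisons could pass a threshold of 0.05. Wild-type cytoplasm exceeded wild-type total by 0.53 (SE 0.30, exact permutation p = 0.2), with overlap when the libraries are taken as unpaired. Within same-numbered wild-type pairs the differences were 0.65, 0.50 and 0.43, all positive (mean 0.53, SE 0.06 over pairs, exact paired p = 0.25, the smallest that 3 pairs can give). Replicate 1 of the wild type had the lowest ratio in both fractions. Without wild-type total replicate 1 the difference between mutant total and wild-type total was 0.36, and that between wild-type cytoplasm and total, unpaired, 0.29. Without wild-type cytoplasm replicate 1 mutant cytoplasm exceeded wild-type cytoplasm by 0.19. Without that library wild-type cytoplasm exceeded wild-type total by 0.70, again unpaired, and with any 1 whole pair left out by 0.47 to 0.58.

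**Figure D2:**
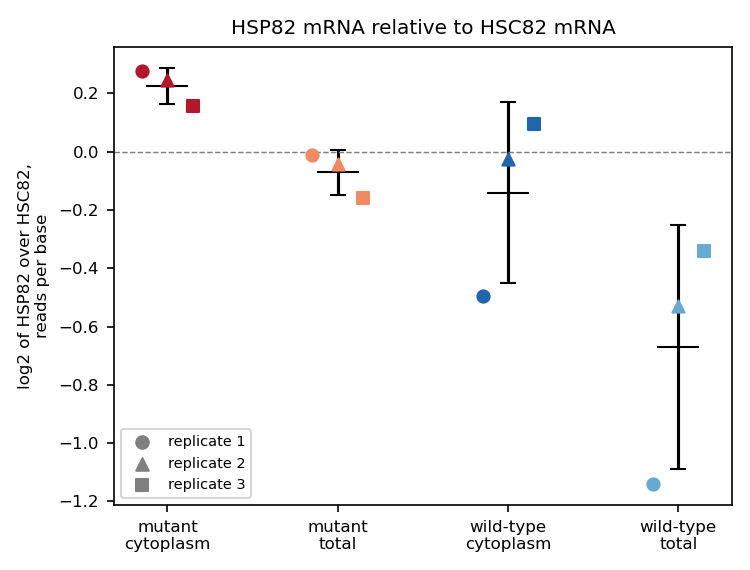
HSP82 over HSC82 mRNA within each library (log2 of reads per base of feature, vertical axis) by group; symbols give the replicate number, horizontal bars the mean and whiskers the SD. Mutant cytoplasm lies at 0.16 to 0.28, above the other groups, and replicate 1 is the lowest point in both wild-type groups (-0.49 in cytoplasm and -1.14 in total).

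Cytoplasm against total lysate in the mutant asked how these mRNAs were distributed relative to other RNAs when export was impaired. TMM scaling sets the median of all features near 0 (log2 -0.0066, against 0.50 with library totals). A loss of cytoplasmic RNA common to all features would therefore not show, and rises and falls are relative. Among the 10, AHA1 rose and SBA1, CDC37, CPR7 and CPR6 fell. Of all 13763 features tested, 30.0% were higher and 28.7% lower in mutant cytoplasm, so 4 of 10 lower is not far above that share and 1 of 10 higher is below it. Among features that hold an mRNA, 926 of 4655 were higher and 1858 lower, with a median log2 difference of -0.22, beside a median of -0.41 for the members.

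AHA1, the strongest known activator of the Hsp90 ATPase in yeast, had 203, 195 and 227 RPKM in mutant cytoplasm, against 112, 121 and 112 RPKM in mutant total. The groups were far apart, and the fold was 1.77 (log2 0.83, SE 0.13, adjusted p = 0.000749). The second reading, inside the gene, gave log2 0.84 (adjusted p = 0.000667). Its counts followed those of the first feature closely, at 6802 beside 8506 in mutant cytoplasm 1 and 3295 beside 4162 in mutant total 1. Whether the features share reads was not tested, so the second reading may not be independent.

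SBA1, the p23 homologue, had 72.8, 60.4 and 85.8 RPKM in mutant cytoplasm, against 141, 148 and 149 RPKM in mutant total. It fell to 0.490 times (log2 -1.03, SE 0.14, adjusted p = 0.000511). The kinase co-chaperone CDC37 had 29.1, 26.4 and 25.7 RPKM in mutant cytoplasm, against 42.6, 46.5 and 41.8 RPKM in mutant total, and fell to 0.608 times (log2 -0.72, SE 0.11, adjusted p = 0.000917).

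The TPR cyclophilins fell as well. CPR7 had 11.96, 9.79 and 11.4 RPKM in mutant cytoplasm, against 17.7, 16.7 and 16.9 RPKM in mutant total (log2 -0.66, SE 0.12, adjusted p = 0.00164). CPR6 had 119, 104 and 120 RPKM in mutant cytoplasm, against 151, 142 and 158 RPKM in mutant total (log2 -0.42, SE 0.13, adjusted p = 0.0189). The CPR6 call was lost without any of 3 single libraries, with adjusted p up to 0.0768, while the second reading, over the start of CPR6 and clear of CDC123, gave log2 -0.62 (adjusted p = 0.00296).

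STI1 (log2 -0.41, SE 0.17, adjusted p = 0.0613; 0.0149 by DESeq2 and 0.0338 in 1 fit of all 12 libraries), CNS1 (log2 -0.22, adjusted p = 0.176) and HCH1 (log2 -0.08, adjusted p = 0.632) did not pass. The second reading of HCH1 gave log2 -0.64 (adjusted p = 0.00765), so the result for this gene depends on the feature. With library totals in place of TMM factors only 3 members passed: AHA1, SBA1 and HCH1, the last with a higher value in cytoplasm, while CPR6 stood at log2 0.07.

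In the wild type the same fractions were compared under the same heat. Of 11976 features 22.3% were higher and 17.6% lower in cytoplasm, and of the 10 members 0 were higher and 3 were lower: SBA1, CDC37 and HSC82. The count of higher members was also 0 at an unadjusted p under 0.05 and by DESeq2, but AHA1 passed as higher with library totals (log2 0.37, adjusted p = 0.0365) and with the replicate block given below. SBA1 had 87.9, 115 and 107 RPKM in cytoplasm, against 183, 186 and 182 RPKM in total lysate (log2 -0.80, SE 0.13, adjusted p = 0.00392). CDC37 had 30.6, 31.4 and 30.1 RPKM in cytoplasm, against 48.0, 52.7 and 52.8 RPKM in total lysate (log2 -0.71, SE 0.11, adjusted p = 0.00312). Both genes showed no overlap between the fractions, in either strain.

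AHA1 had 157, 153 and 172 RPKM in wild-type cytoplasm, against 137, 126 and 153 RPKM in wild-type total, with touching ranges (log2 0.24, SE 0.12, adjusted p = 0.133). STI1 stood at log2 -0.02 (SE 0.13, adjusted p = 0.915) and the other 4, CPR7, CPR6, HCH1 and CNS1, between -0.32 and -0.21, all without passing. Deviations of same-numbered wild-type libraries correlated weakly (0.25, 0.39 and 0.12). With the replicate number as a block 5 members passed in place of 3: AHA1 and CPR7 were added.

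**Figure D3:**
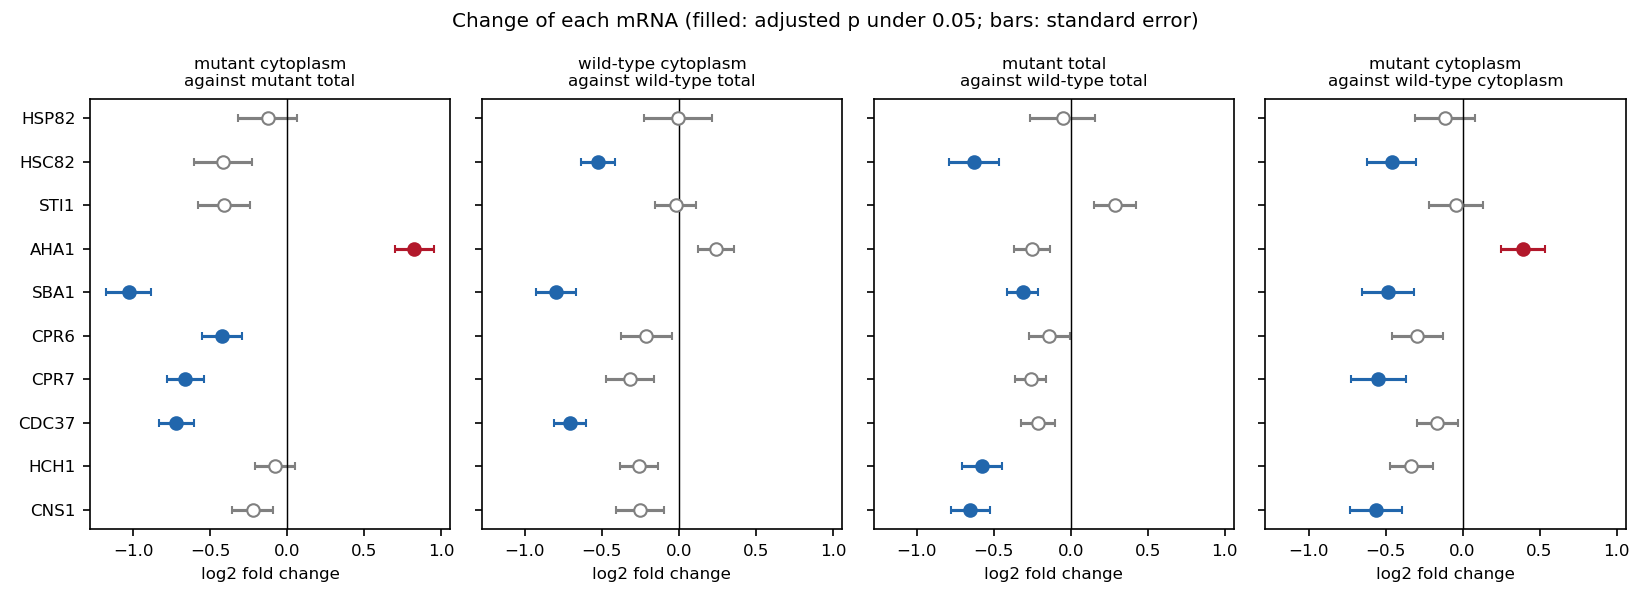
Log2 fold change (horizontal axis) of the 10 mRNAs (rows) in the 4 comparisons (panels); whiskers are the standard error, and filled points have an adjusted p under 0.05 by edgeR. SBA1 and CDC37 are filled on the left in both comparisons of cytoplasm with total lysate, AHA1 is filled on the right in both panels with mutant cytoplasm, and HSP82 is open in all 4.

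A fit of all 12 libraries with strain, fraction and their interaction asked whether the cytoplasm to total ratio of a gene depended on the strain. Of 13145 features 4.57% were higher and 5.68% lower in the mutant. AHA1 was the 1 member called: its ratio of cytoplasm to total was 1.57 times as high in the mutant as in the wild type (log2 0.65, SE 0.17, adjusted p = 0.0287). The adjusted p was between 0.0306 and 0.0862 with 1 library left out, and the call was lost without mutant total replicate 1, wild-type cytoplasm replicate 3, wild-type total replicate 1 or wild-type total replicate 3. The direction held in all 12 of those fits, at log2 0.57 to 0.75. For SBA1 (log2 -0.17, SE 0.20), CDC37 (log2 0.05, SE 0.15) and HSC82 (log2 0.17, SE 0.21) no difference between the strains was detected.

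Total lysates of the strains show the level of each mRNA relative to other RNAs of whole cells after the heat, not its amount per cell. Of 12360 features 26.9% were higher and 25.6% lower in the mutant, and of the members 0 were higher and 4 were lower: CNS1, HSC82, HCH1 and SBA1. The count of higher members was 0 at an unadjusted p under 0.05 and by DESeq2 as well, but STI1 passed as higher with library totals (log2 0.51, adjusted p = 0.0126) and with TMM factors from mRNAs alone (log2 0.41, adjusted p = 0.0175). CNS1, an essential TPR co-chaperone, had 12.4, 11.3 and 13.3 RPKM in mutant total, against 21.9, 16.5 and 20.4 RPKM in wild-type total, and was 0.637 times as high (log2 -0.65, SE 0.13, adjusted p = 0.00263). HCH1, a small protein related to Aha1, had 31.2, 34.7 and 26.9 RPKM in mutant total, against 47.6, 41.6 and 50.9 RPKM in wild-type total (log2 -0.58, SE 0.13, adjusted p = 0.00515), and its second reading gave log2 -0.56 (adjusted p = 0.00659). Neither gene overlapped between the strains.

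SBA1 had 141, 148 and 149 RPKM in mutant total, against 183, 186 and 182 RPKM in wild-type total (log2 -0.31, SE 0.10, adjusted p = 0.0281). Its groups did not overlap, but the call was lost without any of 4 single libraries, with adjusted p up to 0.0941. STI1 was the member with the highest value, at 327, 396 and 336 RPKM in mutant total, against 290, 286 and 303 RPKM in wild-type total (log2 0.29, SE 0.13, adjusted p = 0.101). AHA1, CPR7, CDC37 and CPR6 were at log2 -0.25, -0.26, -0.21 and -0.14 without passing.

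In cytoplasm, 32.3% of 13578 features were higher and 28.9% lower in the mutant, and 1 member was higher and 4 were lower. AHA1 was 1.31 times as high in mutant as in wild-type cytoplasm (log2 0.39, SE 0.14, adjusted p = 0.0366), CNS1 0.676 times (log2 -0.56, adjusted p = 0.0157), CPR7 0.685 times (log2 -0.55, adjusted p = 0.0244) and SBA1 0.715 times (log2 -0.48, adjusted p = 0.033), beside HSC82 above. CNS1 had 10.3, 9.81 and 12.2 RPKM in mutant cytoplasm, against 18.8, 13.5 and 16.1 RPKM in wild-type cytoplasm, with no overlap. HCH1 did not pass (log2 -0.33, adjusted p = 0.0638), whereas its second reading gave log2 -0.84 (adjusted p = 0.00395). These calls were not stable: between 0 and 4 members passed when 1 library was left out. With TMM factors taken from the mRNAs alone 1 member passed, AHA1, still higher. With library totals none of the 4 lower calls was kept (HSC82 stood at log2 0.07 and SBA1 at 0.03), and 3 members passed, all as higher: AHA1 (log2 0.92), STI1 (log2 0.48, adjusted p = 0.0256) and CDC37 (log2 0.37, adjusted p = 0.0355). Shifts of scale matter most here, since library totals place the median of all features at log2 0.57 and TMM factors at 0.04. A change of scaling moves all features nearly alike. Values relative to that median are therefore almost fixed and do not test the calls. Over the 4 scalings tried, AHA1 stood relative to that median at 0.35, HSC82 at -0.50, SBA1 between -0.54 and -0.52 and CNS1 between -0.61 and -0.60.

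Set beside the median mRNA instead, the gap between the paralogs stays as it was by construction, and only the reference moves. HSP82 lay above the median of all mRNAs read by 0.10 in mutant cytoplasm against mutant total, by 0.04 in wild-type cytoplasm against total, by 0.08 in mutant total against wild-type total and by 0.13 in mutant cytoplasm against wild-type cytoplasm, all on the log2 scale. HSC82 was at -0.19, -0.48, -0.50 and -0.22 in those comparisons. Against the median of all features HSP82 lay below it, at -0.12, -0.03, -0.06 and -0.16 in the same order. The sign for HSP82 thus depended on the reference, and all these offsets of HSP82 were smaller than its SE of 0.19 to 0.22.

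The other genes of the pathway were read from lists chosen with earlier results of these data known. Among 13 other Hsf1 targets (chaperones and their regulators such as the disaggregase HSP104), 9 were higher and 2 lower in mutant total than in wild-type total, with a median log2 difference of 0.82, beside -0.26 for the 10 members and 0.01 for all features. BTN2, a sorting factor for misfolded protein, was at log2 1.76 (SE 0.15, adjusted p = 3.00e-05), the small heat shock protein gene HSP42 at 1.73 and the mitochondrial disaggregase gene HSP78 at 1.29. The cytosolic Hsp70 genes SSA1 and SSA2 were lower, at log2 -0.65 and -0.61, next to HSC82 at -0.63. The same list in cytoplasm had 7 higher and 1 lower, with a median of 0.57 beside -0.31 for the members. Of all mRNA features tested, 884 of 4542 were higher and 1516 lower in mutant total. In mutant cytoplasm 964 of 4652 were higher and 1874 lower. Of the listed targets with a heat shock element as defined above, 7 were higher and 2 lower in mutant total, while of the 6 members with one, HSC82 and HCH1 were lower and the other 4 did not pass.

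Among 6 other partners of Hsp90 (the phosphatase PPT1, the adaptor SGT1, and TAH1, PIH1, RVB1 and RVB2 of the R2TP complex), 4 were lower in mutant total than in wild-type total (median log2 -0.62), and 5 were lower in mutant cytoplasm than in wild-type cytoplasm (median log2 -0.73). PPT1 had the largest change in cytoplasm, at log2 -1.39 (SE 0.19, adjusted p = 0.000231). Within the mutant 5 of the 6 were lower in cytoplasm than in total (median log2 -0.75), and within the wild type 3 of the 6 (median log2 -0.47), beside medians of -0.41 and -0.26 for the members. Lower calls were common among all mRNA features tested: 1516 of 4542 between total lysates and 1874 of 4652 between cytoplasms. Cytoplasm against total lysate gave 1858 of 4655 lower in the mutant and 966 of 4512 in the wild type. Among 6 genes of Hsp90-dependent proteins, 1 was higher and 2 lower in mutant total: the kinase gene SLT2 at log2 0.52, and the haem-responsive regulator gene HAP1 at -1.42 and the cell cycle kinase gene SWE1 at -0.53. HSF1 had no opposite-strand feature by the rule and was not read.

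**Figure D4:**
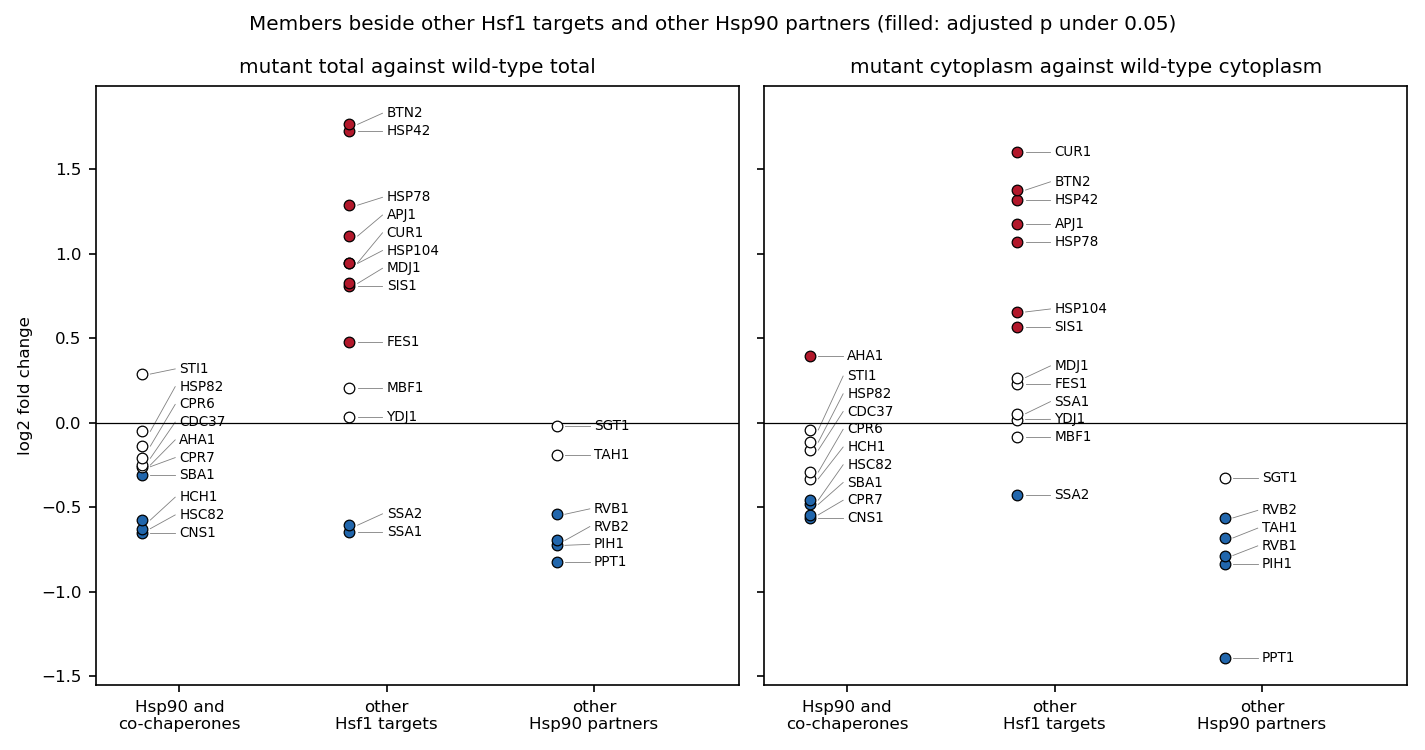
Log2 fold change (vertical axis) between the strains for the 10 members, 13 other Hsf1 targets and 6 other Hsp90 partners, in total lysate (left panel) and cytoplasm (right panel); each point is a gene, filled where the adjusted p was under 0.05 by edgeR. In total lysate 9 of the other Hsf1 targets are filled above 0, while the members run from -0.65 (CNS1) to 0.29 (STI1).

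Across the 12 libraries the pattern of each paralog was compared with that of the other mRNAs (Pearson's r of log2 CPM over 4607 features, as a description, since libraries share groups and scaling). HSP82 and HSC82 correlated with each other at 0.27. The features most like HSC82 were those of TCA17 with YEL047C (0.99), PMU1 (0.99) and SSE1 (0.99), an Hsp110 nucleotide exchange factor. The features most like HSP82 reached only 0.80 (YIR035C) and 0.74 (YJL077W-A and the trehalase gene NTH2). Among the members AHA1 stood opposite to CDC37 (-0.79) and SBA1 (-0.77).

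Antisense reads were few for most members. Per base, the opposite-strand feature held 400 times the density of the gene's own feature for STI1, 350 times for CPR6, 347 for HSC82, 302 for HSP82, 125 for AHA1 and 107 for CDC37, but 25.5 for SBA1, 3.92 for CNS1, 3.41 for CPR7 and 2.87 for HCH1. A coding gene of the other strand overlaps each of those last 4: PRR1 covers 39.6% of SBA1, SLI15 32.2% of CNS1, RAV1 26.8% of CPR7 and ERG24 53.4% of HCH1. Open reading frames also cover 29.7% of CPR6, 28.1% of AHA1 and 17.1% of HSC82 on the other strand. Their own features can therefore hold reads of these mRNAs, and the part these play was not tested. No coding gene of the other strand overlaps HSP82. Whether the few reads on the own features, as at HSP82, HSC82 and STI1, are antisense RNA or mRNA reads assigned to the other strand was not tested.

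The counts on the HSP82 own feature were 220, 213 and 151 in mutant cytoplasm, against 330, 244 and 231 in mutant total. They were 147, 297 and 234 in wild-type cytoplasm, against 194, 180 and 272 in wild-type total. The antisense value was lower in mutant cytoplasm than in mutant total (log2 -0.61, SE 0.23, adjusted p = 0.0425), as was that of HSC82 (log2 -0.59, SE 0.18, adjusted p = 0.0175), and neither passed in any other comparison. STI1 antisense had 75, 40 and 61 counts in mutant total, against 28, 21 and 20 in wild-type total (log2 1.12, SE 0.30, adjusted p = 0.0112). In wild-type cytoplasm against total STI1 antisense was under the minimum mean count and was not tested.

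CNS1 antisense was higher in cytoplasm than in total in the mutant (log2 0.70, adjusted p = 0.0117) and in the wild type (log2 0.73, adjusted p = 0.0245), and higher in the mutant in both total (log2 0.53, adjusted p = 0.0422) and cytoplasm (log2 0.55, adjusted p = 0.0457). CPR7 antisense was higher in wild-type cytoplasm than in wild-type total (log2 0.71, adjusted p = 0.00778) and lower in mutant than in wild-type cytoplasm (log2 -0.74, adjusted p = 0.00297). SBA1 antisense was lower in mutant cytoplasm than in mutant total (log2 -0.80, adjusted p = 0.00459). HCH1 antisense had 132, 125 and 127 counts in mutant cytoplasm, against 308, 350 and 412 in wild-type cytoplasm (log2 -1.78, SE 0.19, adjusted p = 5.49e-05). It was also lower in mutant cytoplasm than in mutant total (log2 -1.05, adjusted p = 0.000602) and in mutant than in wild-type total (log2 -0.79, adjusted p = 0.000416). AHA1 antisense, with 40 to 87 counts in mutant and 34 to 77 in wild-type libraries, did not pass in any comparison, and those of CPR6 and CDC37 were under the minimum of 40 counts on average and were not tested.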

How the data were processed

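Counts per annotated feature were analysed for 12 RNA-seq libraries (50-base single reads), as the authors deposited them. Per the labels and methods, reads had been aligned to sacCer3 with STAR 2.5.2a and assigned with featureCounts 1.5.0-p1 to Ensembl genes extended by UTRs and non-coding transcripts; the strand setting is not given in the sources used here, and the labels name a non-stranded kit. No column of fold changes was used.

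The 10 members and the comparison lists were chosen with earlier results of these data known. All members are named, with the 3 largest calls in each direction per list and the 3 most similar mRNAs for each Hsp90 gene. The mRNA was read from the opposite-strand feature covering at least 0.5 of the gene. Each comparison was fitted on its own libraries with edgeR 4.0.16 in R 4.3.3 (TMM factors, mean count above 40, quasi-likelihood test, Benjamini-Hochberg adjustment over all features, threshold 0.05) and tested on simulated data. RPKM values use TMM-scaled library sizes. The HSP82 to HSC82 ratio was compared by an exact two-sided permutation test in SciPy 1.17.1. Totals of 24532091 to 37361004 counts per library leave counting error small for the mRNAs read; counting error does not cover differences between libraries.

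Replicate numbers were taken to pair the wild-type fractions, since deviations of same-numbered libraries from their group means correlated at 0.25, 0.39 and 0.12; the labels do not tie the numbers to a culture or day. In the mutant they correlated at 0.38, -0.35 and -0.19, and no pairing was taken there. Mutant libraries with unlike numbers reached 0.45 (cytoplasm 3 with total 2) and 0.23 (cytoplasm 2 with total 1 and with total 3). Whether the mutant fractions pair under other numbers was not tested. No pairing was taken between strains either, where same-numbered libraries correlated at 0.094, 0.27 and 0.18 in cytoplasm and 0.031, 0.045 and 0.057 in total lysate. Wild-type cytoplasm 1 and total 3, with unlike numbers, reached 0.10, close to the 0.12 of replicate 3. The pairing was thus chosen from these data and rests on weak correlations. Alternatives were DESeq2 1.42.0, library totals, TMM factors from mRNAs alone, no count filter, 1 fit of all libraries, a replicate block, stricter features and leaving out each library; second features for AHA1, CPR6 and HCH1 were added after seeing the data.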

Additional observations from a re-analysis of the deposited data

Results flagged for a closer look

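A pair of values differed between the strains in the interaction test of edgeR. The cytoplasm to total ratio of AHA1 mRNA, which encodes the activator of the Hsp90 ATPase, was higher in the mutant than in the wild type by 0.65 on the log2 scale (SE 0.17, adjusted p = 0.0287), from a log2 difference of 0.83 in the mutant and 0.24 in the wild type. The ratio of the reads on the strand antisense to HCH1, an ATPase activator related to Aha1, differed by -0.98 on the log2 scale (SE 0.21, adjusted p = 0.0104), from -1.05 in the mutant and -0.01 in the wild type. ERG24 covers 53.4% of HCH1 on the other strand, and the part of its reads in the HCH1 value was not tested.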

How the results depend on the processing

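With any 1 library left out, the differences in the HSP82 to HSC82 ratio kept their direction. They ran at log2 0.25 to 0.33 (mutant cytoplasm against mutant total), 0.29 to 0.70 (wild-type cytoplasm against total, unpaired), 0.36 to 0.76 (mutant total against wild-type total) and 0.19 to 0.49 (mutant against wild-type cytoplasm). A pseudocount of 10 is too small beside these counts to change the direction, and the replicate block leaves the mean difference as it is. With that block the exact permutation p was 0.25 in each, the smallest that 3 pairs can give. With the replicate block 5 members passed in wild-type cytoplasm against total and HSP82 stood there at 0.0033; the block changed no other count of members called by over 1.5 times. In mutant cytoplasm against mutant total 7 members passed by DESeq2 and in 1 fit of all 12 libraries (HSC82 and STI1 added as lower). With library totals 3 passed there. With only features lying at least 0.8 inside the gene 3 passed as well. That rule drops CPR6, CDC37 and HCH1 and leaves the features of the others as they were, so it tests no call. In mutant against wild-type cytoplasm 3 passed with library totals, all higher (AHA1, STI1, CDC37) and none of the 4 lower ones, 1 with TMM factors from mRNAs, and 0 to 4 with 1 library left out. For the interaction 0 passed with no count filter and 0 to 1 with 1 library left out.

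With library totals, which move the median of all features by 0.16 to 0.57, these log2 differences turned positive: in mutant cytoplasm against mutant total HSP82 0.38, HSC82 0.088, STI1 0.089, CPR6 0.073, HCH1 0.44 and CNS1 0.27; in wild-type cytoplasm against total HSP82 0.13 and STI1 0.12; in mutant total against wild-type total HSP82 0.16, CPR6 0.087 and CDC37 0.0098; in mutant against wild-type cytoplasm HSP82 0.41, HSC82 0.068, STI1 0.48, SBA1 0.035, CPR6 0.23, CDC37 0.37 and HCH1 0.20; for the interaction HSP82 0.25, SBA1 0.12, CPR6 0.15 and CPR7 0.027. With TMM factors from mRNAs HSP82 stood at 0.072, 0.072, 0.066, 0.14 and 0.014 in those 5 comparisons, HCH1 at 0.12 in the first, STI1 at 0.054 in the second and 0.21 in the fourth, and CDC37 at 0.097 in the fourth. For the interaction CDC37 was at -0.0030 with no count filter and HCH1 at -0.28 with its second feature.

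With 1 library left out, values that crossed 0 ran between -0.21 and 0.017 (HSP82) and between -0.15 and 0.025 (HCH1) in mutant cytoplasm against mutant total; between -0.18 and 0.16 (HSP82) and between -0.10 and 0.085 (STI1) in wild-type cytoplasm against total; between -0.23 and 0.12 (HSP82) in mutant total against wild-type total; between -0.29 and 0.0072 (HSP82) and between -0.17 and 0.072 (STI1) in mutant against wild-type cytoplasm; and between -0.24 and 0.10 (HSP82), -0.27 and 0.0052 (SBA1) and -0.027 and 0.21 (CNS1) for the interaction. None of these was called, and the cause of these shifts was not tested. AHA1, SBA1, CPR7 and CDC37 in mutant cytoplasm against mutant total, HSC82, SBA1 and CDC37 in wild-type cytoplasm against total, and CNS1, HCH1 and HSC82 in mutant total against wild-type total passed with any 1 library left out.

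With 3 libraries a group, differences within the spread of HSP82 could not be detected, and features shared with neighbours limit CPR6, CDC37 and HCH1.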
